A study of Homo sapiens with 12 samples.

Results

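YAF2 and RYBP are paralogous subunits of Polycomb repressive complex 1. In a library of recruited domain pairs they were represented by the YAF2 domain (YAF2_HUMAN in the files) and by a RYBP tile (ENSG00000163602, tile 11). The members described here are all pairs that hold either domain in the first or the second position. Of 396 possible pairs 394 were read, against 9983 pairs read in the whole library. YAF2 occurred in 197 pairs and the RYBP tile in 199, of which 2 held both. In assembly GRCh38.p14 the YAF2 gene lies on chromosome 12 (42157104 to 42238248) and the RYBP gene on chromosome 3 (72374597 to 72446623).

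K562 is a human chronic myeloid leukaemia line. Its cells carried a reporter and a lentiviral library of fusions of ordered domain pairs to rTetR, a protein that binds its DNA site when doxycycline is present, so that recruitment can be switched on and off. The cells were selected with blasticidin for 7 days and given 1000 ng/mL doxycycline from day 8 after infection. The activation screen (K562 + pDY032) lasted 2 days and the repression screen (K562 + pJT039) 5 days, and in the memory screen the same pJT039 line had 5 days of doxycycline and then 5 days without it. The depositors' titles call the memory screen unused, without a reason. Each screen has 2 replicates from separate infections, with a coverage near 600 cells for a library member, and each replicate was split into a bound and an unbound fraction, giving 12 libraries. Bound is read here as the fraction with the reporter on. The baseline is the set of pairs of 2 control domains, drawn from the 21 controls that the files name (11 tiles of dystrophin, DMD, and 10 random sequences).

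Polycomb repressive complex 1 is a family of assemblies built on a RING1 ubiquitin ligase and a PCGF protein. YAF2 and RYBP occupy the same surface of the RING1 subunit and so define the variant complexes, while CBX proteins take that place in the canonical ones. The variant complexes are known for placing ubiquitin on histone H2A at silent developmental genes, and RYBP and YAF2 can also bind that mark. Tethered next to a reporter, subunits of this kind are known to lower its transcription. A memory screen asks how much of the low state is left after the recruiter is released.

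Total reads ranged from 612999 in the activation unbound library of replicate 2 to 55121999 in the activation bound library of replicate 1. Pairs with YAF2 took 0.129% to 0.725% of a library's reads and pairs with the RYBP tile 0.220% to 1.34%. The median YAF2 pair had 7 reads and the median RYBP-tile pair 22 reads in the shallowest library, and 866 and 2090 in the deepest library for them, the memory unbound library of replicate 1. YAF2 pairs had the lower median count in all 12 libraries. Next to other controls, the summed score of a single control domain ranged from -0.16 to 0.70 in activation, from -0.81 to 0.20 in repression and from -0.18 to 0.64 in memory, leaving out DMD tile 31, which lay at 2.12 in activation and -1.69 in repression.

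Next to control partners both domains strongly lowered the bound share in the repression screen. YAF2 pairs held 2.79 and 1.84 reads per 1000 control-pair reads in the bound fractions of replicates 1 and 2, against 30.0 and 27.0 in the unbound fractions. The unbound share was thus 10.7-fold and 14.7-fold the bound share. RYBP-tile pairs held 5.68 and 3.64 reads per 1000 bound against 63.9 and 60.1 unbound, or 11.3-fold and 16.5-fold. The scores were -3.65 ± 0.25 for YAF2 and -3.77 ± 0.33 for the RYBP tile (mean ± SD, n = 2), below the lowest control domain in both replicates. In the edgeR quasi-likelihood fit, with Benjamini-Hochberg adjustment over 79 domains, the log2 bound over unbound was -3.65 for YAF2 (SE 0.22, adjusted p = 7.1e-15) and -3.77 for the RYBP tile (SE 0.17, adjusted p = 4.6e-17). In this screen 73.4% of the domains were called lower, and YAF2 ranked number 8 and the RYBP tile number 6 from the lowest of the 79. The size rests on the control pairs as the 0: with total counts the effects were -1.80 and -1.92, and with TMM over all members -1.67 and -1.79, all called.

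A single control partner weighed on these sums. Random control 89 supplied 27.6% and 31.6% of the bound reads of the RYBP tile's control pairs in the repression screen but 4.26% and 4.52% of the unbound reads. Without that control, the repression effect of the RYBP tile was -4.21 and that of YAF2 -3.80. Per partner the lowest, median and highest mean scores with controls were -5.86, -4.88 and -1.82 for YAF2 placed first and -5.39, -4.25 and -1.85 for YAF2 placed second. For the RYBP tile they were -5.44, -4.23 and -0.90 in the first and -6.09, -4.39 and -1.18 in the second. A score is the log2 ratio of total-normalised bound to unbound reads of a replicate, with counts under 5 raised to 5, centred on the median control pair.

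**Figure D1:**
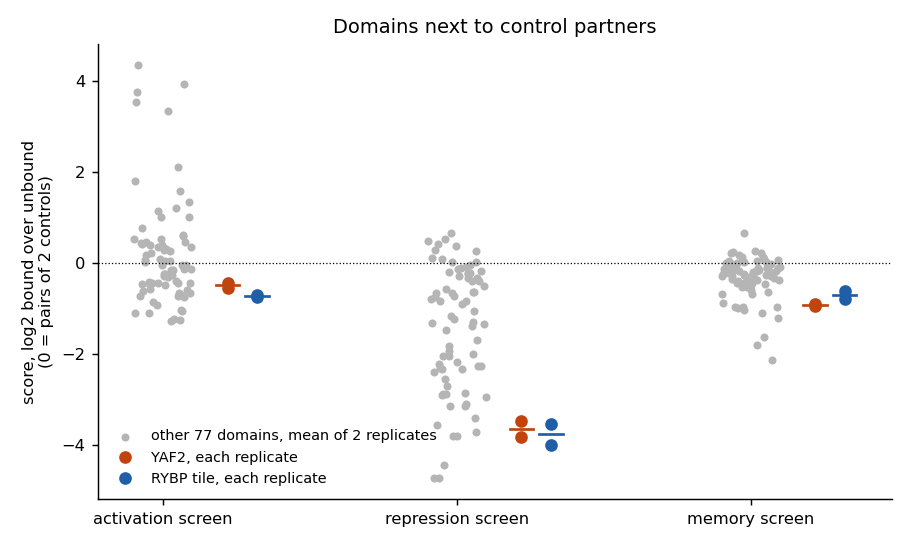
Score of each domain next to control partners (log2 bound over unbound, y axis, 0 is the pairs of 2 controls) in the 3 screens. Grey points are the means of the other 77 domains, coloured points the 2 replicates of YAF2 and of the RYBP tile, and bars their means. In repression the means of the proteins lie at -3.65 and -3.77, near the low end of all domains; in activation and memory they lie between -0.44 and -0.95.

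The files name 2 other Polycomb domains by gene. PCGF2, the RING-type partner of RING1, and SCMH1, a Sex-comb-on-midleg homologue, were also lower than controls in repression. PCGF2 had scores of -2.27 and -2.26 and SCMH1 of -2.03 and -2.31. YAF2 was lower than PCGF2 by 1.39 (95% interval of YAF2 minus PCGF2 -1.75 to -1.03, limma adjusted p = 9.8e-05) and lower than SCMH1 by 1.48 (-1.83 to -1.14, adjusted p = 5.3e-05). The RYBP tile was also lower than PCGF2 (interval -1.90 to -1.11, limma adjusted p = 1.0e-04) and lower than SCMH1 by 1.60 (-1.98 to -1.21, adjusted p = 6.4e-05). Silencer tiles were known by Ensembl identifier alone, and any Polycomb proteins among them are not named here. Tile 18 of ENSG00000100307 scored -3.72 and -3.89 in the replicates, and no difference from either protein was called (adjusted p = 0.38 against YAF2 and 0.82 against the RYBP tile in limma, intervals -0.21 to 0.52 and -0.31 to 0.39). Tile 62 of ENSG00000102098 scored -2.04 and -2.47, and YAF2 and the RYBP tile were lower by 1.40 and 1.51. CBX1, a heterochromatin protein of the HP1 family, and SUMO3, a small ubiquitin-like modifier, did not differ from either by the test in repression. The intervals against CBX1 were -0.42 to 0.56 for YAF2 and -0.49 to 0.39 for the RYBP tile, so differences within them remain possible. All 3 variants of KRAB, the repression domain of zinc finger proteins, were lower than both, by 0.78 to 1.08 relative to YAF2 and by 0.66 to 0.96 relative to the RYBP tile. Each of the 2 proteins was lower than 69 and higher than 3 of the 78 other domains by this limma test, in which 80.9% of all domain pairs differed in repression, 65.8% in activation and 28.3% in memory.

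On the activation reporter the 2 proteins alone moved the bound share much less. The YAF2 sum was 9.05 and 7.04 reads per 1000 bound against 12.5 and 10.6 unbound in replicates 1 and 2. For the RYBP tile these were 15.9 and 14.1 bound against 26.4 and 24.3 unbound. The bound share was the smaller in both replicates of both. In limma the YAF2 score was higher than that of CBX1 by 0.60 (adjusted p = 0.036) and of SUMO3 by 0.79 (adjusted p = 0.017). The RYBP tile was higher by 0.36 and 0.55, neither called (adjusted p = 0.13 and 0.055). All 3 KRAB variants were lower than YAF2, by 0.56 to 0.77. Variants P21506 and Q3KP31 were also called lower than the RYBP tile, and M0QYP0 was not. The edgeR effect was -0.52 for YAF2 (SE 0.20, adjusted p = 0.021) and -0.76 for the RYBP tile (SE 0.16, adjusted p = 0.00018), where 35.4% of domains were called lower. The YAF2 call was lost with DMD tiles as the only partners (adjusted p = 0.11), and both calls were lost when either replicate was left out (adjusted p 0.053 to 0.17).

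Pairs with activating partners showed the larger change. A partner counted as activating when the activation screen gave it, next to controls, a called log2 effect no smaller than 1. It counted as dual when the repression screen also gave it a called effect of -1 or below. By this rule 5 partners were activating and 6 dual. Next to controls the median score over partner positions was 2.39 for these partners. With YAF2 or the RYBP tile, 39 of 44 such pairs passed the read filter, and the mean score of all 39 was below 0, with 37 below 0 in both replicates. Their mean scores ran from -2.29 to -0.10 with a median of -1.45. The partner shift, the score of the pair minus the partner's median next to controls in the same position, was called lower in 30 of the 39 (limma). That included 10 of 10 dual pairs of YAF2 and 11 of 12 of the RYBP tile, with median shifts of -4.96 and -5.19, and 3 of 9 and 6 of 8 pairs with activating partners. Over all pairs of 2 non-control domains 7.78% of shifts were called lower. The classes were set from the same control-partnered reads that a shift subtracts, so the size of these shifts is partly fixed by the choice of partners, whereas the pair scores themselves were not used.

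MYBA, a Myb-family transcription factor, had the highest score next to controls, 4.53 in the first position. With YAF2 behind it the replicates were -2.40 and -0.49 (shift -5.98, SE 0.52, limma adjusted p = 0.0017). With the RYBP tile behind it they were -0.86 and -1.92 (shift -5.92, SE 0.39, adjusted p = 0.0014). All 4 values lie below the control pairs. NCOA2, a nuclear receptor coactivator, went from 4.32 next to controls to -1.12 and -0.79 with YAF2, and to -1.83 and -0.88 with the RYBP tile. These are the best-read activating pairs, with 7640 and 11034 unbound reads in replicate 1. FOXO3, a forkhead transcription factor, went in the second position from 3.88 to -0.78 and -2.41 after YAF2 and to -2.34 and -1.63 after the RYBP tile. ZN473, a zinc finger protein, went in the first position from 3.80 to -1.76 and -1.85 with YAF2 and to -1.25 and -0.49 with the RYBP tile. The silencer tile ENSG00000179833 tile 22, which was dual here, went from 3.86 to -0.99 and -0.80 with YAF2 and to -1.14 and -1.02 with the RYBP tile. Replicates of these pairs differed by up to 1.91, and no replicate value of a dual pair reached 0.

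Further partners activated less by themselves. CRTC2, a coactivator of CREB, had 1.18 in the second position and fell to -1.51 and -1.34 with YAF2 (shift -2.60, SE 0.42, limma adjusted p = 0.012) and to -1.98 and -1.76 with the RYBP tile (shift -3.05, SE 0.39, adjusted p = 0.0055). KIBRA, a scaffold of the Hippo pathway, had 2.39 in the second position and -2.45 and -0.92 after the RYBP tile (shift -4.08, SE 0.45, adjusted p = 0.0033). After YAF2 it had -1.55 and -0.08, which was not called (shift -3.20, SE 0.95, adjusted p = 0.080). ZN597, a zinc finger protein, kept the highest values of the set. It had 1.69 in the first position next to controls, -1.13 and 0.58 with YAF2 and 0.69 and -0.89 with the RYBP tile, so its replicates lay on both sides of 0. Other strong silencers gave low scores with these partners too. Over the 6 dual partners YAF2 had the median score of rank 10 and the RYBP tile of rank 8 from the lowest among 36 silencing domains, with the KRAB variants, SUMO3 and CBX1 among those lower. ENSG00000100307 tile 18 had rank 19 (median -0.72) and ENSG00000102098 tile 62 rank 26 (0.24). PCGF2 had rank 24 and SCMH1 rank 25 on that order, with medians of -0.42 and -0.10 against -1.23 for YAF2 and -1.38 for the RYBP tile; these ranks were not tested.

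**Figure D2:**
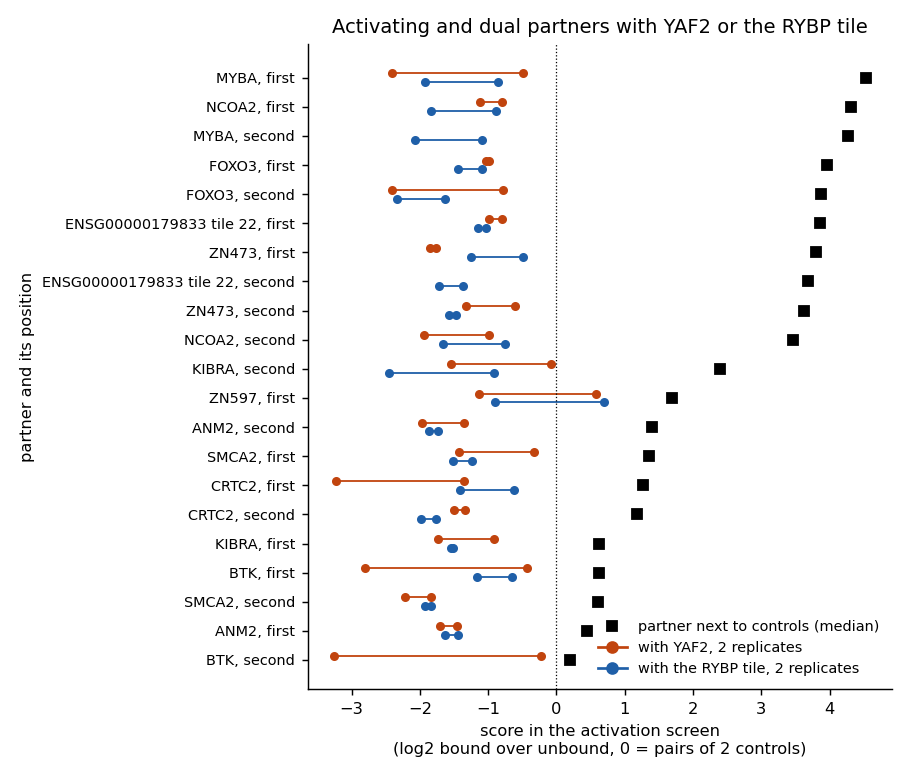
Activation-screen score (log2 bound over unbound, x axis) of each activating or dual partner in its position (y axis). Black squares are the partner's median next to controls and joined points the 2 replicates of its pair with YAF2 or with the RYBP tile. The squares run up to 4.53 while all replicate values with the 2 proteins except the ZN597 pairs lie below 0.

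Over all partners other than the 2 proteins themselves, 15 of 142 tested YAF2 pairs and 34 of 174 RYBP-tile pairs were called lower than control pairs in activation (edgeR), against 10.5% of all members. None was called higher, against 14.9% of all members; with an unadjusted p under 0.05 none of the YAF2 pairs and 1 of the RYBP-tile pairs was higher. The median effect was -0.97 for YAF2 and -0.998 for the RYBP tile, and -0.35 over all members. DESeq2 called 28 and 55 pairs lower and 1 YAF2 pair higher. The deviation from additivity was the score minus the sum of both domains' medians next to controls. It was called below the sum in 12 of 113 YAF2 and 16 of 137 RYBP-tile pairs (8.64% of all pairs of 2 non-control domains). Of these 10 and 11 had dual partners. The dual class was set from the same control-partnered reads that enter the sum, so these deviations are partly fixed by that choice. Above the sum were 0 of 113 YAF2 pairs and 5 of 137 RYBP-tile pairs (8.05% of all). Those 5 all had silencing partners, with the deviations between 1.16 (SUMO3 in the second position) and 1.84 (TOX, an HMG-box protein, in the first).

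In repression most pairs of both proteins were low whatever the partner. Lower calls were made for 130 of 145 tested YAF2 pairs and 167 of 178 RYBP-tile pairs, against 57.1% of all members. No pair of either was called higher, against 0.497% of all, nor was any higher with an unadjusted p under 0.05, and DESeq2 called none. The median effect was -4.23 for YAF2 and -4.30 for the RYBP tile against -1.98 over all members. Every tested pair with a control was called lower, 31 of 31 and 38 of 38, as were all 12 pairs of each with dual partners. Relative to the partner next to controls, 74 of 114 YAF2 pairs and 94 of 140 RYBP-tile pairs were shifted lower (limma; 30.0% of all), and 1 YAF2 pair was shifted higher (4.90% of all), that with KRAB variant M0QYP0 in the first position.

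With partners that silence by themselves the pairs lay above the sum of both domains. The median score was -4.09 over 39 YAF2 pairs and -4.30 over 57 RYBP-tile pairs, where the sums of medians were -7.37 and -7.67. Deviations above the sum were called in 29 of the 39 and 47 of the 57. These partners were classed as silencing from the same control-partnered repression reads that enter the sum. The size of these deviations is thus partly fixed by the choice of partners. The read floor also keeps thinly read pairs from reaching the lowest sums. With partners called neither, the median deviation was 0.02 and 0.20, and 9 of 55 and 7 of 62 were called above. Over all partners, 43 of 114 and 63 of 140 pairs were above the sum, against 23.2% of all pairs of 2 non-control domains. With the stronger of both medians as the expectation, 7 and 8 were above it. Whether the range of the screen limits the lowest score was not tested. Below the sum were 0 YAF2 pairs and 2 RYBP-tile pairs (6.24% of all), those with ENSG00000205571 tile 13 (scores -4.84 and -7.56, expected -3.82) and ENSG00000061273 tile 33 (scores -4.96 and -6.15, expected -4.26) in the second position.

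The 7 tested pairs with PCGF2 and SCMH1 were called lower than control pairs. PCGF2 followed by YAF2 had scores of -4.24 and -7.23 (effect -5.62, SE 0.76), and the RYBP tile followed by PCGF2 had -4.52 and -7.09 (effect -5.86, SE 1.02). Neither deviated from its sum of -6.73 and -6.90 by the limma test (adjusted p = 0.25 and 0.18). Their second replicates rest on 20 and 3 bound reads. PCGF2 followed by the RYBP tile had -4.55 and -4.03, which was 2.70 above its sum (SE 0.39, limma adjusted p = 0.0069). With SCMH1 the 2 YAF2 pairs had effects of -3.26 and -4.25 and the 2 RYBP-tile pairs of -3.68 and -3.90, with deviations above the sum of 3.03 to 3.63, all called except that of YAF2 followed by SCMH1. With ENSG00000100307 tile 18, 3 of 4 pairs were called lower, with effects of -3.33 to -4.26. The exception was YAF2 followed by that tile, with scores of -2.53 and -0.98 (effect -1.74, SE 0.98, edgeR adjusted p = 0.16). It lay 6.38 above its sum (limma adjusted p = 0.0054), but its reads were too few to reach that sum with the read floor. With ENSG00000102098 tile 62 all 3 tested pairs were called lower, with effects of -3.41 to -5.83. With KRAB variants the tested pairs had effects of -3.49 to -6.49 for YAF2 and -4.08 to -5.01 for the RYBP tile, all 10 called lower in edgeR. CBX1 and SUMO3 pairs had effects of -3.77 to -5.20, all called lower as well.

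A small set of partners was much less depleted next to both proteins. It was picked after the values were seen, as the partners whose median repression score over all tested pairs with the 2 proteins was above -2, and is given as a description. Of 88 partners tested with both proteins 7 were in it, from DPF1 to ZN597 (-1.62), and DPY30 was the next one outside (-2.20). DPF1, a subunit of neural BAF chromatin remodelling complexes, had effects of -0.29 and -1.47 with YAF2 and -0.14 and -0.66 with the RYBP tile, and none of the 4 was called. The pair of the RYBP tile and DPF1 had 1694 bound and 131 unbound reads in replicate 1 and 691 and 278 in replicate 2, with scores of -0.08 and -0.19. ITCH, a ubiquitin ligase, had effects of -0.59 and -0.77 with YAF2 and of -0.95 and -1.70 with the RYBP tile, of which the last was called lower. BTK, a tyrosine kinase, had -0.25 with YAF2 and -0.58 and -1.20 with the RYBP tile, none of them called. ENSG00000174197 tile 238 had -0.93 with YAF2 and -0.93 and -1.80 with the RYBP tile, the last called lower. For both partners the pair with YAF2 placed first did not pass the read filter. Replicate 2 had 7 bound and 33 unbound reads for BTK, and 7 and 34 for the tile. Both ZN597 pairs were called lower, at -1.76 with YAF2 and -1.49 with the RYBP tile. Random control 89 had -1.85 and -2.35 with YAF2 and -0.91 and -1.19 with the RYBP tile, all called lower. SSX2 entered through 2 thinly read pairs whose values disagreed, 1.89 with YAF2 (SE 1.91) and -2.97 with the RYBP tile (SE 1.33).

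Of the pairs that were not called lower, 15 with YAF2 and 11 with the RYBP tile, 14 held 1 of these partners. The partners were picked on scores of the same pairs, so this count is partly fixed by that choice. For the 6 partners other than SSX2, the median pair had 997 to 3572 reads over the 4 repression libraries. Next to controls in the same screen they lay between -0.03 and 0.71, SSX2 apart, which was at -2.09. Most of these partners, SSX2 apart, were also less depleted with other silencers. The share of a partner's pairs with other silencing domains that scored above -2 had a median of 15.3% over the 88 partners. With the 34 other silencing domains, 85.3% of random control 89 pairs scored above -2, as did 83.3% of ENSG00000174197 tile 238 pairs, 81.0% of DPF1 pairs, 79.7% of BTK pairs, 71.8% of ZN597 pairs, 63.1% of ITCH pairs and 29.4% of SSX2 pairs. Of 8 partners with a share over 60%, 6 were in the set, and the others were DPY30 (79.3%) and DMD tile 130 (61.0%), whose median with the 2 proteins was -4.54. Over the 88 partners the medians with the 2 proteins and with other silencing domains had a Pearson correlation of 0.73 and a Spearman correlation of 0.35, in points that share libraries and partners. The cause was not tested.

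**Figure D3:**
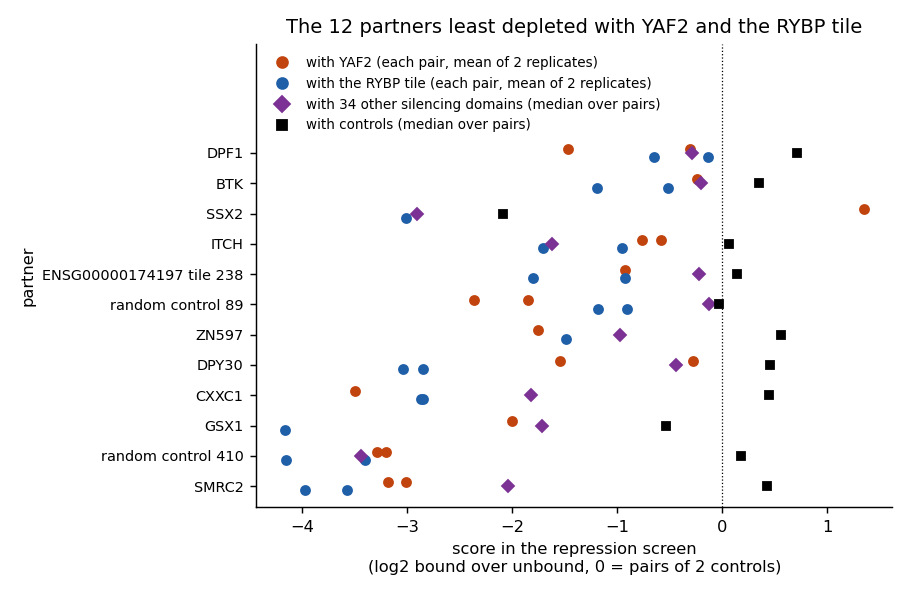
Repression-screen scores (log2 bound over unbound, x axis) of the 12 partners, among those tested with both proteins, that were least depleted with them (y axis, highest median at the top). Circles are single pairs with YAF2 or the RYBP tile (mean of 2 replicates), diamonds the median with 34 other silencing domains and squares the median with controls. DPF1, BTK, ITCH and ENSG00000174197 tile 238 lie above -2 in every tested pair with both proteins. YAF2 followed by BTK and YAF2 followed by ENSG00000174197 tile 238 did not pass the read filter and are not shown.

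After 5 days without doxycycline most of the difference from controls was gone. The YAF2 sum had 11.5 and 11.1 reads per 1000 bound against 21.9 and 21.9 unbound, a 1.90-fold and 1.98-fold excess in the unbound fraction. The RYBP-tile sum had 24.2 and 26.7 bound against 42.5 and 42.0 unbound, 1.76-fold and 1.57-fold. The edgeR effects were -0.96 (SE 0.19, adjusted p = 0.00034) and -0.73 (SE 0.16, adjusted p = 0.00051), where 36.7% of domains were called lower. Both calls were lost when libraries were scaled by total counts (-0.46 and -0.24), and that of the RYBP tile also without replicate 1 (-0.65, adjusted p = 0.095) and with DMD tiles as the only partners (-0.57, adjusted p = 0.079). Relative to the repression screen the effect rose by 2.70 for YAF2 (SE 0.28, edgeR adjusted p = 2.0e-09) and by 3.03 for the RYBP tile (SE 0.23, adjusted p = 1.3e-11). A rise was called for 60.8% of domains. That of YAF2 ranked number 72 and that of the RYBP tile number 79 of 79 in rising order. The RYBP tile thus had the largest rise in this fit, but the rises were not tested against each other. With libraries scaled by total counts the rise was 1.35 and 1.68, and with TMM over all members 1.27 and 1.61, all called. The screens also differ in days after infection, which cannot be told apart from the release of doxycycline.

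The KRAB variants were lower than the 2 proteins in memory, as they were in repression. The repression gaps were 0.78 to 1.08 relative to YAF2 and 0.66 to 0.96 relative to the RYBP tile. Whether the KRAB variants kept a larger part of the low state was not tested. Their scores in memory were lower by 0.69 to 1.20 than that of YAF2 and by 0.92 to 1.42 than that of the RYBP tile, all 6 differences called (limma adjusted p 0.0032 to 0.017). Against SCMH1, YAF2 was lower by 0.69 (limma adjusted p = 0.015), while the 0.46 of the RYBP tile was not called (adjusted p = 0.074). The differences from PCGF2 in memory were not called. YAF2 minus PCGF2 was -0.49 (unadjusted 95% interval -0.85 to -0.13, limma adjusted p = 0.052). The RYBP tile minus PCGF2 was -0.27 (-0.66 to 0.13, adjusted p = 0.28). ENSG00000100307 tile 18 was at -1.21 in memory, lower than the RYBP tile by 0.50 (limma adjusted p = 0.043), while its difference from YAF2 was not called (adjusted p = 0.22). YAF2 was lower than ENSG00000102098 tile 62 by 0.54 (limma adjusted p = 0.027), and the difference of the RYBP tile from it was not called (adjusted p = 0.14).

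Few single pairs were called in memory. Lower calls were made for 8 of 175 YAF2 pairs and 19 of 185 RYBP-tile pairs, against 7.03% of all members, and none was called higher (0.257% of all; none with an unadjusted p under 0.05 either). DESeq2 called 34 and 42 lower and none higher. The median effect was -1.06 and -0.84 against -0.40 over all members. With KRAB variants the median was -2.49 over 6 YAF2 pairs, 1 of them called lower, and -2.34 over 6 RYBP-tile pairs, 4 of them called. KRAB variant M0QYP0 followed by YAF2 had scores of -2.61 and -1.83, and followed by the RYBP tile of -2.69 and -1.69. The KRAB variants alone had a median score of -1.87 with controls. No partner shift and no deviation from additivity was called in memory by limma for either protein; with an unadjusted p under 0.05 there were 30 and 29 shifts and 12 and 11 deviations. None was called over the whole library either (0% of 11551 shifts and of 5765 deviations), where 15.6% of shifts and 8.34% of deviations had an unadjusted p under 0.05. The change from repression to memory was above 0 in 141 of 143 YAF2 pairs and 175 of 178 RYBP-tile pairs, against 7134 of 8935 members in the whole library. A rise was called in 81 YAF2 pairs and 138 RYBP-tile pairs (edgeR, 41.9% of all members). DPF1 followed by the RYBP tile was the single pair called lower (0.604% of all members), by 3.03 (SE 1.04, edgeR adjusted p = 0.038). It went from -0.66 in repression to -3.68 in memory, where its scores were -2.93 and -4.42, the latter on 42 bound reads. The other DPF1 pairs had memory effects of 0.10 (after the RYBP tile), 2.26 (after YAF2) and -0.98 (before YAF2).

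No difference between YAF2 and the RYBP tile was called at the level of the domain. In repression the score of YAF2 minus that of the RYBP tile was 0.12 (95% interval -0.22 to 0.45, limma). These sums include random control 89. It supplied 27.6% and 31.6% of the bound repression reads of the RYBP tile's control pairs, and 15.5% and 11.4% for YAF2. Without that control the effects given above lie further apart, with the RYBP tile the lower, and that difference was not tested. In activation it was 0.24 (-0.10 to 0.57; 0.27 and 0.20 in the replicates) and in memory -0.22 (-0.56 to 0.11). None was called (adjusted p 0.47, 0.18 and 0.29), and differences within these intervals remain possible. Per partner and position, 0 of 138 differences in activation, 0 of 143 in repression and 0 of 172 in memory were called by limma, and 0 by an edgeR interaction test on the counts. With an unadjusted p under 0.05 there were 4, 13 and 8 by limma and 4, 16 and 2 by edgeR. The median SE of such a difference was 0.72 to 0.75. The lowest repression difference was that of TERF1, a telomeric protein, in the first position. Its YAF2 pair scored -5.14 and -7.16 and its RYBP-tile pair -3.18 and -1.81, the former on 70 and 1 bound reads. It was called only with each screen fitted alone (-3.65, limma adjusted p = 0.035, an alternative chosen after seeing the data).

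Scores of the 2 proteins over the same partners and positions had a Pearson correlation of 0.56 in repression (Spearman 0.34, n = 143), 0.47 in memory (Spearman 0.45, n = 172) and 0.21 in activation (Spearman 0.22, n = 138). The points share libraries, partners and depth. Over the same partners the replicates of a single protein correlated by 0.42 for YAF2 and 0.52 for the RYBP tile in repression, by 0.05 and 0.42 in memory, and by 0.18 and 0.36 in activation.

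**Figure D4:**
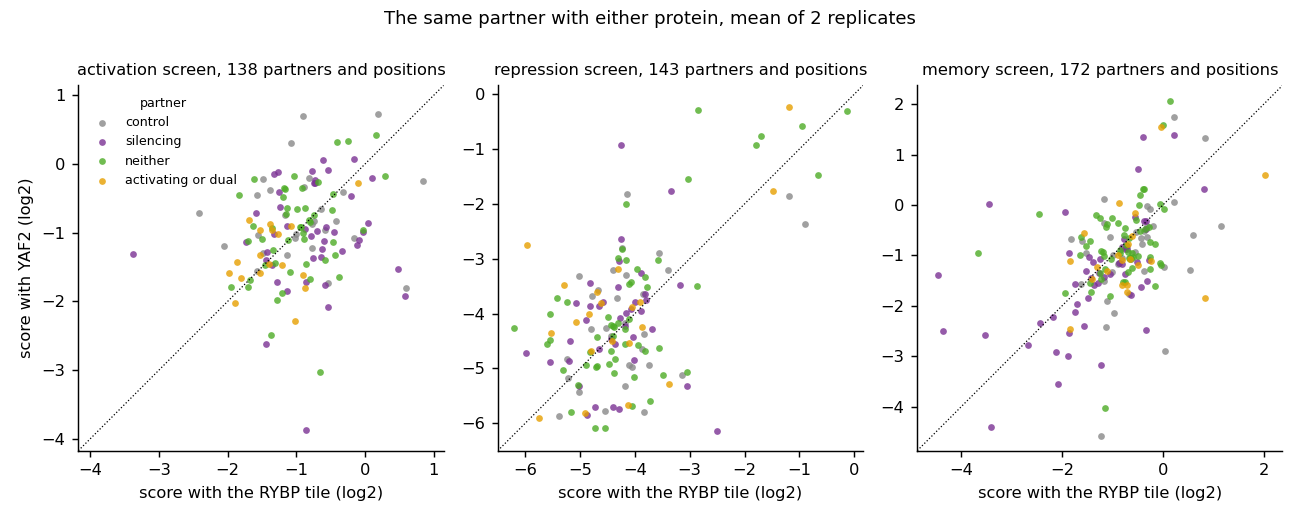
Mean score over 2 replicates of a partner with YAF2 (y axis) against its score with the RYBP tile (x axis), both as log2 bound over unbound, in the 3 screens. Each point is a partner in a given position, coloured by what the partner does with controls, and the dotted line marks equal scores. No point was called different from the line; in repression most points lie near -4 on both axes and a few partners lie high with both proteins.

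Position made no called difference. In repression YAF2 had an effect of -3.69 when placed first and -3.64 when placed second (first minus second in scores -0.04, 95% interval -0.41 to 0.32, limma adjusted p = 0.88). For the RYBP tile these were -3.71 and -3.83 (0.12, -0.31 to 0.55, adjusted p = 0.74). In activation the differences were -0.03 (-0.39 to 0.34) and 0.09 (-0.34 to 0.51), and in memory -0.11 (-0.47 to 0.25) and 0.04 (-0.39 to 0.46). In activation YAF2 was called lower when placed second (-0.51, edgeR adjusted p = 0.032) but not first (-0.54, adjusted p = 0.095). Its control pairs were read less when placed first (4575 against 15466 reads, activation bound, replicate 1). Lower YAF2 pairs were 2 of 55 placed first and 13 of 87 placed second in activation (10.5% of all members). In memory they were 0 of 81 and 8 of 94 (7.03% of all members). These counts were not tested against each other. For a given partner, the 2 orders differed in no case by the limma test, in 51, 58 and 80 tested partners of YAF2 and 80, 83 and 89 of the RYBP tile in activation, repression and memory. No order difference was called over the whole library in any screen (0%). With an unadjusted p under 0.05 there were 1, 10 and 7 for YAF2 and 3, 5 and 8 for the RYBP tile. The median absolute difference between orders was 0.55, 0.75 and 0.65 for YAF2 and 0.46, 0.54 and 0.55 for the RYBP tile.

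The 2 proteins were also paired with each other. YAF2 followed by the RYBP tile had repression scores of -4.13 and -4.42 (effect -4.26, SE 1.21, edgeR adjusted p = 0.011), and the reverse order -3.97 and -6.32 (effect -5.13, SE 1.12, adjusted p = 0.0023). Both were above the sum of medians, by 4.54 and 3.16 (limma adjusted p = 0.0070 and 0.0053). These are thinly read pairs, with 36 and 12 bound reads in the first order and 64 and 4 in the second. With counts under 5 raised to 5, they could not reach sums this low at any split of their reads. A value above the sum was therefore fixed in advance by their depth. In memory they scored -3.41 and -1.84, and -1.29 and 0.01, and neither was called.

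The pairs of a protein with itself need their own baseline, because such pairs moved together by library across the whole set of domains. The 21 pairs of a control with itself had a median score of 3.33 in memory replicate 1 (range 2.81 to 4.75) and of -0.02 in memory replicate 2. In repression their medians were -1.27 and -0.53, and in activation -0.71 and 0.56. The self pair of YAF2 had memory scores of 2.06 and -2.18 and that of the RYBP tile 2.66 and -1.30, with opposite signs in the replicates. Relative to the median self pair of controls they were -1.27 and -2.17 for YAF2 and -0.68 and -1.28 for the RYBP tile, below 0 in both replicates. In repression the YAF2 self pair scored -6.17 and -6.76 (effect -6.44, SE 0.93, edgeR adjusted p = 0.00014) and the RYBP self pair -6.09 and -6.40 (effect -6.24, SE 0.81, adjusted p = 6.8e-05). They ranked number 5 of 148 YAF2 pairs and number 3 of 181 RYBP-tile pairs from the lowest. Relative to control self pairs these scores were -4.89 and -6.23 for YAF2 and -4.82 and -5.87 for the RYBP tile. All 34 tested self pairs of other silencing domains also lay below the median of their domain in repression, so a low self pair was not particular to the 2 proteins.

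**Figure D5:**
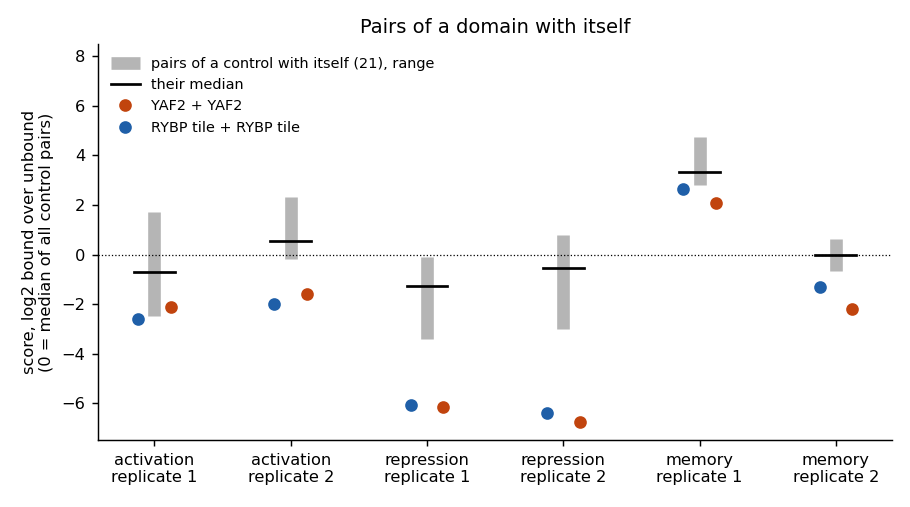
Scores (log2 bound over unbound, y axis) of YAF2 and of the RYBP tile paired with themselves in each screen and replicate, with the range (grey bar) and median (black line) of the 21 pairs of a control with itself. In memory replicate 1 the control self pairs lie at 2.81 to 4.75 and the 2 proteins at 2.06 and 2.66, below that range.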

How the data were processed

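The values are counts: per the labels, the authors deposited read pairs summed per ordered domain pair, after trimming 30 bases from both read ends and aligning each position separately with Bowtie2 (version not given in the sources used here). Their filter, floor and scores were not applied in these files. No molecular identifiers are stated, so reads are not independent molecules. The p-values rest on the spread between the 2 separately infected replicates, pooled over all screens and in part shared across domains or pairs. They are thus not set by the replicates of a single screen alone. With a replicate left out, a screen has no spread of its own, and its calls rest on that of the other screens.

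Here edgeR 4.0.16 (R 4.3.3, quasi-likelihood) fitted the 12 libraries jointly, with each replicate of a screen as its own block and 1 bound coefficient for every screen, scaled by TMM over control pairs (3 residual degrees of freedom). The numbers pair the fractions because both fractions come from 1 separately infected culture, per the labels; same-replicate deviations correlated by 0.01, 0.16 and -0.06. Domain effects use counts summed over control partners. Pairs needed 5 reads in either fraction and 50 in both in each replicate. Scores (floor 5) and their differences were tested with limma 3.58.1, over the 3 screens together, and medians needed 5 control partners. Adjusted p at or below 0.05 was called. DESeq2 1.42.0, other scalings, controls, filters and floors, and each replicate left out were the alternatives. The scripts were tested on simulated counts.

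Named items were the 2 proteins, their own pairs, Polycomb, KRAB, CBX1, SUMO3 and activating partners, and the largest called pairs; the members and lists were chosen with earlier results of these data known. RYBP is the gene given for the tile's Ensembl identifier by the selection of members, and gene coordinates come from RefSeq. The labels give 20 controls with 10 DMD tiles, whereas the files name 21 with 11, and all 21 were used. The labels also say that 6 repressors with design errors were discarded later, without naming them in the sources used here, so all domains stayed in the ranks.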

Additional observations from a re-analysis of the deposited data

Results flagged for a closer look

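The change between the repression and the memory screen was tested in 1 fit and differed from 0 for both proteins. The log2 bound over unbound next to controls was higher in memory by 2.70 for YAF2 (SE 0.28, edgeR adjusted p = 2.0e-09) and by 3.03 for the RYBP tile (SE 0.23, edgeR adjusted p = 1.3e-11), in both replicates of each.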

How the results depend on the processing

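Of 437 comparisons of 64 main results with an alternative, 358 kept direction and side of the threshold, 11 lost the call, 65 counts moved by over 1.5 times and 3 reversed; of 646 comparisons of 91 single pairs or positions, 514 kept both, 131 lost the call, 1 gained it and none reversed. YAF2 pairs had the lower median count in each library. The cause of each change was not tested.

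Scaling by total counts shifted all values by -1.06 in activation, 1.85 in repression and 0.50 in memory, and TMM over all members by 0.09, 1.98 and 0.56. With total counts the memory effects were -0.46 for YAF2 (edgeR adjusted p = 0.069) and -0.24 for the RYBP tile (adjusted p = 0.23), and with TMM over all members -0.40 and -0.17. Lower pairs (YAF2, then the RYBP tile) were 74 and 128 in activation with total counts, and 1 and 3 in memory with either scaling; in repression 86 (total counts) and 84 (TMM) YAF2 pairs were lower. Higher repression pairs were 2 for the RYBP tile with total counts, and 1 and 3 with TMM over all members. Pairs that rose from repression to memory were 24 and 71 with either. DESeq2 called 28 and 55 pairs lower in activation, 1 YAF2 pair higher there, and 34 and 42 lower in memory. With DMD tiles as the only partners the YAF2 activation effect was -0.53 and the RYBP-tile memory effect -0.57.

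With at least 200 reads, YAF2 had 80 lower repression pairs, 13 lower activation shifts, 6 activation deviations below the sum, 46 lower repression shifts, and 1 repression deviation below and 27 above the sum; the RYBP tile had 10 activation deviations above it. A floor of 1 read gave 1 YAF2 activation deviation above the sum, and a reference on summed counts 0 higher YAF2 repression shifts. With the stronger of both medians expected, the RYBP tile had 1 activation deviation above, and repression deviations were 2 and 0 below and 7 and 8 above. With each screen fitted alone, chosen after seeing the data, activation deviations above the sum were 3 and 1, repression gave 1 called paralogue difference, 0 higher YAF2 shifts and 1 RYBP-tile deviation below the sum.

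Without either replicate in turn, the activation effect ranged from -0.58 to -0.46 for YAF2 and from -0.79 to -0.73 for the RYBP tile, and the RYBP-tile memory effect from -0.82 to -0.65. Lower activation pairs ranged from 1 to 1 and from 2 to 6, lower memory pairs from 0 to 2 and from 0 to 3, and YAF2 pairs that rose between the screens from 46 to 87. Lower activation shifts ranged from 7 to 9 and from 8 to 11, activation deviations below the sum from 7 to 8 and from 7 to 9, and those above it for the RYBP tile from 0 to 0. In repression lower shifts ranged from 46 to 60 and from 61 to 75, higher YAF2 shifts from 0 to 3, deviations above the sum from 22 to 37 and from 34 to 46, and those of the RYBP tile below it from 0 to 2. The position difference, never called, reversed without replicate 1 in activation (0.067 for YAF2, -0.17 for the RYBP tile) and without replicate 2 in repression (0.052 for YAF2); its ranges were -0.12 to 0.067 and -0.17 to 0.34 in activation and -0.14 to 0.052 for YAF2 in repression.

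Without the replicate block no domain call changed; the effects of YAF2 were -0.52, -3.62 and -0.96 in activation, repression and memory and its change 2.67, and those of the RYBP tile -0.76, -3.73 and -0.73 and 3.00.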
